A study of Mus musculus with 12 samples.

Results

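Wild-type mouse neural stem cells were compared 3 h and 48 h into differentiation. The comparison took the 3 wild-type libraries labelled 48 h and the 3 labelled 3 h, which are 6 of the 12 RNA-seq libraries of the series. The other 6 libraries, labelled Chd5-/-, cover the same times and were used here to estimate the spread and to test where the wild-type course differed. The cells of every group were primary neural stem cells. They had been grown in DMEM/F-12 with N-2, bovine serum albumin, epidermal growth factor (EGF) and fibroblast growth factor 2, and were then moved to neurobasal medium with B-27, bovine serum albumin and L-glutamine. The 3 h and 48 h groups thus share the change of medium, and no library of undifferentiated cells was compared. The labels name no brain region, age, strain, animal or culture, so a p-value here measures only the spread between these samples, which may be technical. In bulk RNA, fewer cells of a type and less RNA per cell cannot be told apart.

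EGF and fibroblast growth factor 2 keep neural stem cells dividing in culture. Withdrawal of these factors is a standard way to let the cells leave the cell cycle and form neurons, astrocytes and oligodendrocytes. Notch signalling between neighbouring cells, through Delta ligands and Hes and Hey repressors, holds part of the population back from becoming neurons and is active in astrocyte formation. Dividing cells also make ribosomes and membrane cholesterol, and the genes for both are controlled by their own transcription programmes.

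Levels are given in CPM, counts per M reads of a library's TMM-scaled size, always in the order of replicates 1, 2 and 3. Differences are log2 fold changes, 48 h minus 3 h, with their standard error (SE) and the Benjamini-Hochberg adjusted p of edgeR's quasi-likelihood F test over 16043 genes. A gene rose or fell where that p was under 0.05.

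The 3 h libraries held 14.11, 17.33 and 17.71 M estimated reads and the 48 h libraries 14.48, 16.11 and 15.68 M. In each group 1 library stood apart. At 3 h, replicates 2 and 3 differed by a chi-square per gene of 2.27, where counting alone gives about 1, and replicate 1 differed from them by 433 and 451. In replicate 1, ribosomal protein genes took 16.2% of all reads, compared with 4.38% and 4.23% in the other 2, and the library had a read-weighted transcript length of 1805 bases against 3049 and 3077. At 48 h, replicates 1 and 3 differed by a chi-square per gene of 1.92, and replicate 2 differed from them by 225 and 232. It gave 0.249% of its reads to 20 DNA replication genes, against 0.0573% and 0.0586%, and 0.964% to cholesterol synthesis genes, against 0.231% and 0.230%. The library labelled Chd5-/- replicate 2 at 48 h likewise gave 0.256% of its reads to the replication genes, against 0.0568% and 0.0570% in its group. Results are therefore given from all 12 libraries and from 10, without wild-type 3 h replicate 1 and wild-type 48 h replicate 2.

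Over all 12 libraries 3668 genes passed, of which 2044 rose (12.7% of the genes tested) and 1624 fell (10.1%). The change was at least 2-fold for 3113 of them, and the 3 h and 48 h libraries did not overlap for 3518, or 95.9%. Among all genes tested, the 48 h libraries lay above the 3 h libraries for 20.9% and below them for 16.8%. The 10 libraries gave 8831 genes of 16501, with 4521 higher (27.4%) and 4310 lower (26.1%). Counts of genes called in the lists below are to be read against these shares of all genes. Of the 3668 calls, 3483 passed again in the same direction and 0 passed in the opposite one, a comparison between fits that share 4 wild-type libraries. The count depended on the libraries that set the spread. With only the 6 wild-type libraries, edgeR and limma-voom called 0 genes, at 3649 and 3566 genes with an unadjusted p under 0.05, and DESeq2 called 2176. Leaving out 48 h replicate 1 or 3 left 1464 or 1472 genes. The median log2 fold change of all genes was 0.09 with 12 libraries and 0.04 with 10.

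**Figure D1:**
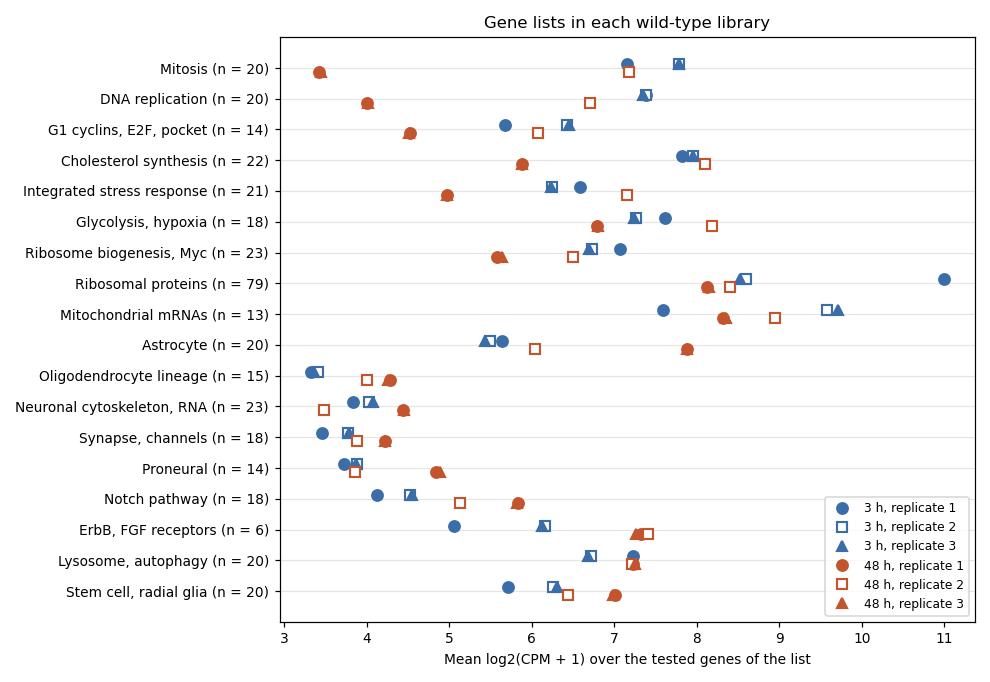
Mean level of selected gene lists, as log2(CPM + 1) over their tested members, in the 6 wild-type libraries at 3 h and 48 h. The mitosis list stands at 7.16 to 7.78 in the 3 h libraries, at 3.42 and 3.45 in 48 h replicates 1 and 3, and at 7.18 in 48 h replicate 2.

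Genes of mitosis were low in 48 h replicates 1 and 3 and remained near their 3 h level in replicate 2. Ccna2, the cyclin of S phase and mitotic entry (GRCm38 chr3:36564865-36572150), stood at 251, 347 and 359 CPM at 3 h and at 10.1, 170 and 10.4 CPM at 48 h. Every 48 h library lay below every 3 h library. On a log scale, however, replicate 2 lay far closer to the 3 h level than to the other 48 h libraries. The log2 fold change of Ccna2 was -2.33 ± 1.23 with an adjusted p of 0.187 over 12 libraries, and -5.13 ± 1.38 with 0.0151 over 10. Mki67, the proliferation antigen Ki-67 (chr7:135689784-135716361), stood at 347, 509 and 518 CPM at 3 h and at 19.1, 417 and 20.2 CPM at 48 h. Its groups overlapped, with 48 h replicate 2 between the 3 h libraries. Top2a, the topoisomerase that untangles replicated DNA, gave 396, 846 and 861 CPM and then 38.2, 612 and 44.7 CPM. Over 10 libraries the fold change was -4.73 ± 1.35 for Mki67 (adjusted p = 0.0195) and -4.39 ± 1.33 for Top2a (adjusted p = 0.0246). Over 12 the adjusted p was 0.374 for Mki67 and 0.35 for Top2a.

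Of the 20 mitosis genes, 0 passed in edgeR over 12 libraries, at 1 with an unadjusted p under 0.05. DESeq2 also called 0 and limma-voom called 7 lower on the same libraries. Over 10 libraries 20 were lower, and the median log2 fold change of the list was -1.9 over 12 and -4.46 over 10. Leaving out 48 h replicate 2 alone was enough for 20 of 20 to pass. On the log2 scale all 20 were nearer their 3 h level in that library than their level in the other 48 h libraries. For comparison, 8093 of the 16043 genes tested were nearer the 3 h level there. Pbk, a mitotic kinase, stood at 138, 175 and 176 CPM at 3 h and at 3.3, 69 and 3.07 CPM at 48 h. The fold change of Pbk was -5.8 ± 1.55 over 10 libraries (adjusted p = 0.0148).

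The mitosis genes share a short promoter element that their selection did not use. CCAAT, the box bound by NF-Y, was searched on both strands in the 200 bases before the RefSeq gene start (build GRCm38.p6), where ATTGG is the same box read on the other strand. It occurs in 30.0% of 27020 promoters and in 33.1% of the 11040 promoters of genes tested here. Among mitosis genes it occurs in 15 of the 16 promoters found, or 93.8%. It occurs in 11 of 15 DNA replication promoters (73.3%), in 3 of 10 of G1 cyclin and pocket protein genes (30.0%) and in 4 of 18 of ribosome biogenesis genes (22.2%). A match describes letters in this window and says nothing on binding. The promoters of Ccnb2 (chr9:70421555-70421754, minus strand), Cdk1 (chr10:69352913-69353112, minus strand) and Top2a (chr11:99024190-99024389, minus strand) are shown because the element recurs in each. They are written 5′ to 3′ in the direction of transcription, with the CCAAT and ATTGG letters in capitals, and hold 3, 2 and 5 matches.
Ccnb2: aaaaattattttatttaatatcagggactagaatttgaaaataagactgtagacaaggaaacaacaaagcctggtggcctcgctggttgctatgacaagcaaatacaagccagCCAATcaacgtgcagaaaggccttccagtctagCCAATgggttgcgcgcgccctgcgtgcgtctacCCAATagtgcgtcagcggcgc
Cdk1: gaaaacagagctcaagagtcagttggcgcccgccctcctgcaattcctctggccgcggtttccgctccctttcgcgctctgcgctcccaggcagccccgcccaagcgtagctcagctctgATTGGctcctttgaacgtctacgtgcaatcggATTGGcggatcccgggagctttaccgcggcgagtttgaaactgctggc
Top2a: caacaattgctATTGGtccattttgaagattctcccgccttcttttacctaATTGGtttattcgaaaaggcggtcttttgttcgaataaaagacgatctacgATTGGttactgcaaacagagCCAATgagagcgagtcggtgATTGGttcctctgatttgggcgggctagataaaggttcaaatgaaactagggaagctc
Ccnb2, a partner of the mitotic kinase, stood at 82.9, 66.9 and 66.0 CPM at 3 h and at 4.03, 38.8 and 5.0 CPM at 48 h. Cdk1, that kinase itself, stood at 345, 335 and 339 CPM and then at 12.3, 186 and 10.4 CPM, and was chosen for display after its values were seen. All 48 h libraries lay below all 3 h libraries for both. The fold change over 10 libraries was -3.9 ± 1.3 for Ccnb2 (adjusted p = 0.0344) and -4.92 ± 1.36 for Cdk1 (adjusted p = 0.0171). Over 12 libraries the adjusted p was 0.17 for Ccnb2 and 0.191 for Cdk1.

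DNA replication genes had the same arrangement, at median log2 fold changes of -1.76 over 12 libraries and -3.46 over 10. Pcna, the sliding clamp of the replicative polymerases, stood at 440, 577 and 572 CPM at 3 h and fell to 65.3, 257 and 69.8 CPM at 48 h. The 2 groups did not overlap, with a fold change of -2.02 ± 0.61 (adjusted p = 0.0374). Pola1, the catalytic subunit of the priming polymerase, fell from 113, 110 and 113 CPM to 15.4, 48.6 and 14.8 CPM (-2.09 ± 0.59, adjusted p = 0.0292). Both calls were lost without 48 h replicate 1 or 3, and that of Pcna also without 3 h replicate 2 or 3, at adjusted p up to 0.125 for Pcna and 0.105 for Pola1. Mcm2, of the replicative helicase, stood at 340, 355 and 349 CPM and then at 51.8, 224 and 52.9 CPM, and passed only over 10 libraries (-2.77 ± 0.71, adjusted p = 0.0124). Of the 20 genes of the list, 5 fell over 12 libraries and 20 were lower over 10. Leaving out 48 h replicate 1 or 3 left 0, leaving out any 3 h library left 3, and leaving out 48 h replicate 2 gave 20.

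Among the larger differences over 10 libraries were genes of S phase. Pclaf, a PCNA partner, stood at 118, 251 and 259 CPM at 3 h and at 5.07, 60.1 and 4.54 CPM at 48 h (-5.75 ± 1.39 over 10 libraries, adjusted p = 0.00988). Rrm2, of ribonucleotide reductase, stood at 203, 275 and 270 CPM and then at 8.06, 133 and 7.33 CPM (-5.17 ± 1.37, adjusted p = 0.0143). Cdc6, which loads the helicase, stood at 48.7, 80.4 and 77.4 CPM and then at 1.59, 50.1 and 2.1 CPM (-5.43 ± 1.38, adjusted p = 0.012). In each, 48 h replicate 2 was the highest 48 h library, and for Cdc6 it overlapped the 3 h range. None of the 3 passed over 12 libraries, where the adjusted p was 0.0825 for Pclaf, 0.186 for Rrm2 and 0.293 for Cdc6.

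Cyclins of G1 were low in 48 h replicates 1 and 3 as well. Ccnd1, cyclin D1, which links growth factor signals to the cell cycle, stood at 1730, 1380 and 1390 CPM at 3 h and at 41.6, 487 and 40.3 CPM at 48 h. The groups did not overlap, and the fold change was -2.98 ± 1.11 over 12 libraries (adjusted p = 0.0733) and -5.1 ± 1.17 over 10 (adjusted p = 0.00794). Ccne2, cyclin E2, stood at 8.91, 89.2 and 92.8 CPM and then at 2.14, 19 and 2.1 CPM, so that 3 h replicate 1 lay within the 48 h range (-5.44 ± 1.07 over 10 libraries, adjusted p = 0.00394). Of 14 G1 cyclin and pocket protein genes, 1 rose and 2 fell over 12 libraries, and 2 were higher and 10 lower over 10. With 48 h replicate 1 or 3 left out the list had no call in either direction, and without 48 h replicate 2 it had 1 higher and 6 lower.

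Genes for inhibitors of the cyclin-dependent kinases fell or did not pass over 12 libraries. Of 7 inhibitor genes 4 fell over 12 libraries and 0 rose, and over 10 libraries 4 were lower and 1 was higher. Cdkn1a, which encodes p21 (chr17:29090976-29100727), fell from 61.8, 42.4 and 43.3 CPM to 8.91, 15.2 and 9.71 CPM (-2.13 ± 0.28, adjusted p = 0.00187). Cdkn2c, p18, fell from 90.5, 116 and 114 CPM to 44.1, 57.8 and 44.6 CPM (-1.13 ± 0.24, adjusted p = 0.00981). Cdkn2d, p19, fell from 123, 42.6 and 41.2 CPM to 9.46, 14.2 and 8.86 CPM (-2.67 ± 0.57, adjusted p = 0.0103). For all 3 genes the 48 h libraries, replicate 2 included, lay below every 3 h library, and the calls held when any wild-type library was left out. Cdkn2a, whose locus encodes p16 and p19ARF, fell from 618, 139 and 141 CPM to 41.2, 96.4 and 41.2 CPM (-2.33 ± 0.57, adjusted p = 0.0184). The highest value was that of 3 h replicate 1, and the Cdkn2a call was lost without 48 h replicate 1 or 3 (adjusted p up to 0.0747).

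**Figure D2:**
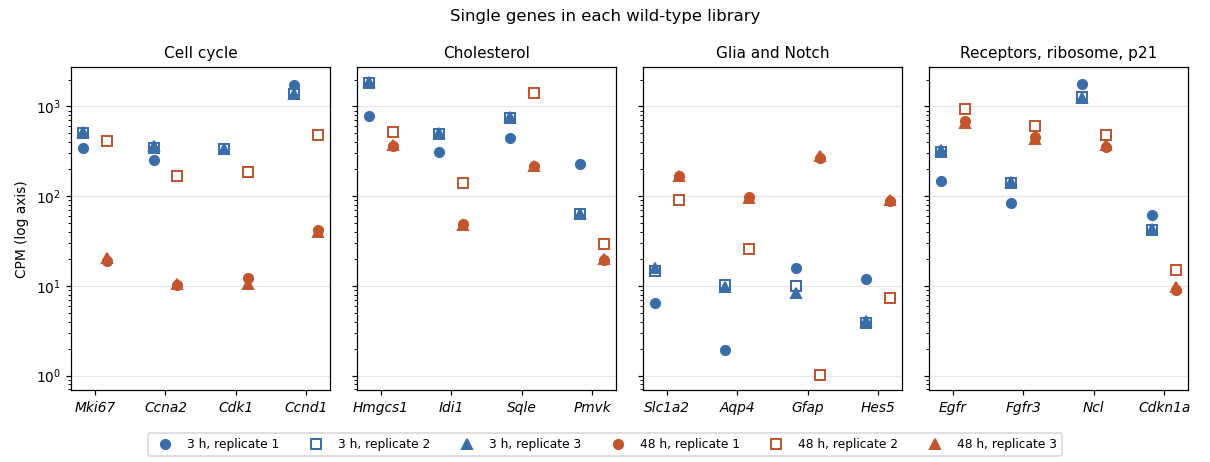
CPM of selected genes in the 6 wild-type libraries, on a log axis, with 1 point per library at 3 h and 48 h. Cdkn1a and Slc1a2 separate the times in all libraries, for Mki67 48 h replicate 2 lies among the 3 h libraries, and for Gfap it lies below them.

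Of 23 genes of ribosome biogenesis, 11 fell and 0 rose at 48 h over 12 libraries, and over 10 libraries 21 were lower and 1 was higher. Ncl, nucleolin (chr1:86344719-86359400), fell from 1780, 1270 and 1240 CPM to 352, 480 and 369 CPM (-1.84 ± 0.24, adjusted p = 0.00187). Nop58, a core protein of small nucleolar particles, fell from 248, 244 and 252 CPM to 50.2, 113 and 53.4 CPM (-1.78 ± 0.31, adjusted p = 0.00514). Gar1, of the particles that modify ribosomal RNA, fell from 132, 52.5 and 47.9 CPM to 8.37, 21.7 and 11.4 CPM (-2.48 ± 0.45, adjusted p = 0.00577). The times did not overlap for these genes, though replicate 2 was the highest of the 48 h libraries in each. Rrs1 and Nolc1, also of the nucleolus, fell by 1.2 ± 0.24 (adjusted p = 0.00799) and 1.63 ± 0.34 (adjusted p = 0.00989) on the log2 scale. These 5 calls held when any wild-type library was left out. In fits lacking 48 h replicate 1 or 3, 5 fell, and without 48 h replicate 2, 17.

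The mRNAs for proteins of the ribosome itself were higher in 3 h replicate 1 than in 3 h replicates 2 and 3. The median log2 difference was 2.53. Rplp2, of the ribosomal stalk, stood at 4180, 483 and 487 CPM at 3 h and at 259, 347 and 267 CPM at 48 h. The fold change of Rplp2 was -2.56 ± 0.72 over 12 libraries (adjusted p = 0.0294) and -0.91 ± 0.13 over 10 (adjusted p = 0.00106). Its call was lost without 48 h replicate 1 or 3 (adjusted p up to 0.0983). Of 79 ribosomal protein genes, 26 fell over 12 libraries at a median log2 fold change of -1.7, and 54 were lower over 10 at a median of -0.44. Leaving out 1 library at a time moved the 26 between 0 (without 48 h replicate 1 or 3) and 70 (without 3 h replicate 3). The count was 28 without 3 h replicate 1, 67 without 3 h replicate 2 and 5 without 48 h replicate 2. Many ribosomal protein genes have near-identical pseudogene copies, between which the authors' counting can split reads. Of 13 mRNAs encoded in mitochondria, 3 fell over 12 libraries and 12 were lower over 10. Leaving out 48 h replicate 1 or 3 left 0 and leaving out 3 h replicate 1 gave 7. mt-Co3, a subunit of cytochrome oxidase, fell from 1390, 3770 and 3860 CPM to 867, 1310 and 1080 CPM (-1.47 ± 0.37, adjusted p = 0.0192). This call was lost without 48 h replicate 1 or 3 (adjusted p up to 0.0806).

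Transcript length moved with these differences. Genes tested were divided into 5 groups of equal size by effective length, from shortest to longest. The median log2 difference of 3 h replicate 1 from replicates 2 and 3 was 0.97, 0.34, -0.05, -0.36 and -0.87. The median fold change over 12 libraries ran from -0.63 in the shortest to 0.48 in the longest, and over 10 libraries from -0.18 to 0.16. Genes that rose made up 6.05% of the shortest and 17.4% of the longest, and genes that fell 20.7% and 3.86%. An offset for effective length gave 2843 calls in place of 3668. That offset follows shifts in a gene's own effective length between libraries and cannot act on differences between short and long genes. The part of length in any gene's change was not tested.

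**Figure D3:**
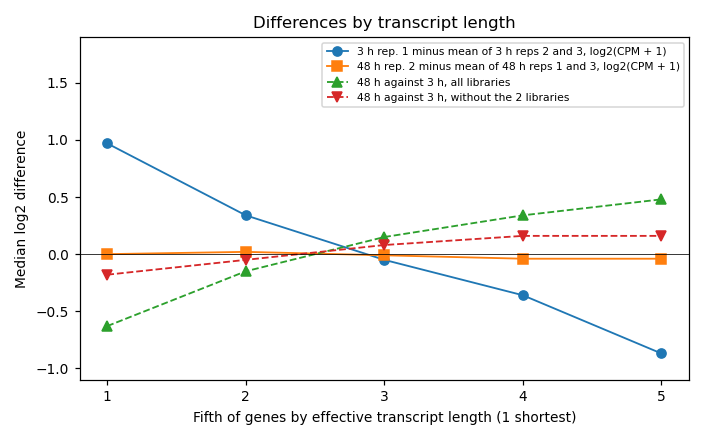
Median log2 differences in 5 groups of genes ordered by effective transcript length: 3 h replicate 1 against replicates 2 and 3, 48 h replicate 2 against replicates 1 and 3, and the change over time with 12 and with 10 libraries. The 3 h replicate 1 difference runs from 0.97 to -0.87, and that of 48 h replicate 2 stays between -0.04 and 0.02.

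Cholesterol synthesis was lower in 48 h replicates 1 and 3 and was divided within replicate 2. Hmgcs1, an early enzyme of the pathway, fell from 789, 1850 and 1870 CPM to 359, 521 and 373 CPM (-1.85 ± 0.4, adjusted p = 0.0108). Idi1, isopentenyl diphosphate isomerase (chr13:8885501-8892451), fell from 312, 498 and 501 CPM to 49.3, 141 and 47.5 CPM (-2.47 ± 0.52, adjusted p = 0.00967). Pmvk, which phosphorylates mevalonate phosphate, fell from 227, 63.4 and 64 CPM to 19.4, 29.5 and 20.1 CPM (-2.36 ± 0.5, adjusted p = 0.00982). In these genes all 48 h libraries lay below all 3 h libraries. The Hmgcs1 call was lost without 48 h replicate 1 or 3 (adjusted p up to 0.0511), and those of Idi1 and Pmvk held without any 1 library.

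Sqle, squalene epoxidase, exceeded its 3 h level in 48 h replicate 2, at 447, 750 and 758 CPM at 3 h and 216, 1430 and 215 CPM at 48 h. That library was the highest of the 6 for Sqle, and the other 48 h libraries were the lowest. The fold change of Sqle was -0.07 ± 0.72 over 12 libraries (adjusted p = 0.956) and -1.83 ± 0.56 over 10 (adjusted p = 0.0258). Of the 22 tested genes of this list, 4 fell over 12 libraries and 20 were lower over 10. Without 48 h replicate 1 or 3 the count was 2, and without 48 h replicate 2 it was 15. In 48 h replicate 2, 18 of the 22 were nearer the 3 h level, and the median difference from replicates 1 and 3 was 2.14 (log2).

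Cholesterol synthesis promoters also hold CCAAT often, in 13 of the 15 found (86.7%, against 30.0% of all promoters). Hmgcs1 (chr13:119690151-119690350, plus strand) and Idi1 (chr13:8885406-8885605, plus strand) are shown as members that fell in every 48 h library. Capitals mark CCAAT or ATTGG, with 2 matches in each.
Hmgcs1: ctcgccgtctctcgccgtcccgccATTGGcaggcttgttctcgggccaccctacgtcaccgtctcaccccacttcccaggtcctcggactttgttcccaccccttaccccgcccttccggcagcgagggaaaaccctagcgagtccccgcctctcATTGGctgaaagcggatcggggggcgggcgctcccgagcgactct
Idi1: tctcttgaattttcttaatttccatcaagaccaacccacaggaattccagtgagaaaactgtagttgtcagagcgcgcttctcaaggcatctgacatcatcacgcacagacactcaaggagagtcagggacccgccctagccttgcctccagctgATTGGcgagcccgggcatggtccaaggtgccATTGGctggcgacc
The 2 transporters that export cholesterol rose. Abca1 stood at 0.101, 6.38 and 7.1 CPM at 3 h and at 95.9, 8.43 and 99.8 CPM at 48 h (3.88 ± 1.16, adjusted p = 0.0359). Abcg1 stood at 0.608, 0.968 and 1.05 CPM and then at 7.88, 0.877 and 7.95 CPM (2.64 ± 0.75, adjusted p = 0.0304). In 48 h replicate 2 Abca1 was only just above the 3 h range and Abcg1 was within it. The Abca1 call was lost without 3 h replicate 2 or 3 or 48 h replicate 1 or 3 (adjusted p up to 0.0966), and Abcg1 held only without 48 h replicate 2 (up to 0.1 otherwise). Over 10 libraries Abca1 was higher by 3.84 ± 0.73 (adjusted p = 0.0034) and Abcg1 by 2.94 ± 0.45 (adjusted p = 0.00127).

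Receptors for the withdrawn growth factors were among the genes that rose. Egfr, the EGF receptor (chr11:16752203-16918158), rose from 147, 313 and 330 CPM to 681, 933 and 657 CPM (1.52 ± 0.3, adjusted p = 0.00788). Fgfr3, a receptor of the fibroblast growth factors, rose from 84, 140 and 144 CPM to 455, 607 and 437 CPM (2.03 ± 0.32, adjusted p = 0.00377). Erbb4, a neuregulin receptor, rose from 2.94, 17.9 and 18.1 CPM to 90.1, 50.8 and 83 CPM (2.51 ± 0.63, adjusted p = 0.0196). Each 48 h library, replicate 2 included, lay above each 3 h library. The Erbb4 call was lost without 48 h replicate 1 or 3 (adjusted p up to 0.0631), and those of Egfr and Fgfr3 held. Of 6 tested receptor genes of the ErbB and FGF families, 4 rose over 12 libraries, 6 were higher over 10 and 0 fell in either. With 48 h replicate 1 or 3 left out, 2 rose.

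Feedback genes of the same pathway were mixed. Dusp6, the phosphatase that switches off ERK, stood at 90.2, 221 and 222 CPM at 3 h and at 32.7, 314 and 33.5 CPM at 48 h. Its groups overlapped, with 48 h replicate 2 the highest library, and it passed in neither fit (-0.49 ± 1.09, adjusted p = 0.769 over 12; -2.77 ± 1.22, adjusted p = 0.0868 over 10). Spred3, an inhibitor of the Ras pathway, rose from 18, 18.8 and 16.1 CPM to 46.5, 54.6 and 45.4 CPM (1.47 ± 0.19, adjusted p = 0.00187). Il17rd, also called Sef, an inhibitor of fibroblast growth factor signalling, rose from 0.709, 3.64 and 3.77 CPM to 52.2, 13.7 and 52.7 CPM (3.83 ± 0.74, adjusted p = 0.00735). Both genes separated the times in every library. Over 12 libraries 2 of 20 tested feedback genes rose and 1 fell, and over 10 libraries 2 were higher and 7 lower. Without 3 h replicate 1 or 48 h replicate 2, 4 and 3 fell, and without 48 h replicate 1 or 3, 0.

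Of 18 tested Notch pathway genes, 8 rose and 0 fell over 12 libraries, ligands and targets among them, and 10 were higher and 0 lower over 10. Dll4, a Delta ligand (chr2:119325784-119335962), rose from 0.405, 0.171 and 0.277 CPM to 31.4, 1.69 and 34.9 CPM (6.34 ± 1.11, adjusted p = 0.00535). Every 48 h library lay above every 3 h library, replicate 2 by the least. Dll1, another Delta ligand, rose from 16.7, 74.5 and 78.4 CPM to 328, 115 and 323 CPM (2.17 ± 0.64, adjusted p = 0.0338). Notch1, the receptor, stood at 109, 388 and 397 CPM and then at 713, 799 and 670 CPM (1.29 ± 0.42, adjusted p = 0.0483). The 3 genes kept all 48 h libraries above all 3 h libraries.

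Hes5, the direct target that keeps progenitors undifferentiated (chr4:154960923-154962371), stood at 12, 3.81 and 4.05 CPM at 3 h and at 89.5, 7.35 and 89.8 CPM at 48 h. In 48 h replicate 2 it lay within the 3 h range, and the fold change was 3.25 ± 0.83 (adjusted p = 0.0208). Hey1, a related repressor, stood at 21.8, 29.4 and 30.9 CPM and then at 114, 30.2 and 109 CPM (1.62 ± 0.49, adjusted p = 0.0385). Like Hes5, it was at its 3 h level in replicate 2. Nrarp, a target that restrains the pathway, rose from 25.2, 31.1 and 31.4 CPM to 68.8, 40 and 64.4 CPM (0.98 ± 0.23, adjusted p = 0.0149). Lfng, which modifies Notch receptors with sugar, rose from 87, 155 and 152 CPM to 237, 354 and 238 CPM (1.07 ± 0.26, adjusted p = 0.0173). Notch1 and Hey1 fall outside the rule for naming genes and were picked once their values had been seen.

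The median log2 fold change of the Notch list was 1.14, against 0.09 for all genes. Leaving out a single library left between 2 (48 h replicate 1 or 3) and 8, with 3 and 5 without 3 h replicate 2 or 3. The calls of Dll4 and Lfng held in each of the 6 fits with a library left out. That of Dll1 was lost without 3 h replicate 2, 48 h replicate 1 or 48 h replicate 3 (adjusted p up to 0.101), and that of Nrarp without 48 h replicate 1 or 3 (up to 0.0686). Hes5 was lost without 3 h replicate 2 or 3 or 48 h replicate 1 or 3 (up to 0.0662). Notch1 was lost without 3 h replicate 2 or any 48 h library (up to 0.111), and Hey1 passed only without 48 h replicate 2 (up to 0.127 otherwise). GTGGGAA, a form of the site of the Notch effector RBPJ, occurs on either strand in 4.26% of all promoters and in 2 of the 15 Notch pathway promoters found. The Hes5 promoter (chr4:154960723-154960922, plus strand) is shown because it holds 1 match, in capitals.
Hes5: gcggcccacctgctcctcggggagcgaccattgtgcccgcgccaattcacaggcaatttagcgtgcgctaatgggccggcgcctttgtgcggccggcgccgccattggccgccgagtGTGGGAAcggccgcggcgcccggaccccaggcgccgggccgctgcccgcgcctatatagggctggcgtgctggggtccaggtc

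Of 20 tested astrocyte genes, 11 rose and 0 fell over 12 libraries, and 18 were higher and 0 lower over 10. Slc1a2, the glial glutamate transporter (chr2:102658659-102790784), rose from 6.48, 14.7 and 15.9 CPM to 168, 91.7 and 166 CPM (3.51 ± 0.41, adjusted p = 0.00116). Aqp4, the water channel of astrocyte endfeet, rose from 1.92, 10.2 and 9.71 CPM to 97.2, 26 and 94.6 CPM (3.3 ± 0.61, adjusted p = 0.00646). Slc4a4, a bicarbonate transporter, rose from 3.54, 22.9 and 20.5 CPM to 103, 93.3 and 98.6 CPM (2.65 ± 0.52, adjusted p = 0.0077). For all 3 genes every 48 h library lay above every 3 h library, and 48 h replicate 2 was the lowest of its group. Atp1b2, a subunit of the sodium pump, rose from 174, 235 and 224 CPM to 651, 584 and 652 CPM (1.58 ± 0.2, adjusted p = 0.00158). Mlc1, a membrane protein of astrocytes, rose from 567, 546 and 531 CPM to 1360, 1420 and 1370 CPM (1.34 ± 0.21, adjusted p = 0.00334). In these 2 genes the 3 libraries of 48 h stood close together. All 5 calls held when any wild-type library was left out.

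Gfap, the intermediate filament of astrocytes (chr11:102887336-102900912), stood at 15.7, 9.85 and 8.27 CPM at 3 h and at 269, 1.01 and 280 CPM at 48 h. In 48 h replicate 2 it was lower than in any 3 h library, so the groups overlapped. The fold change of Gfap was 4.03 ± 1.43 over 12 libraries (adjusted p = 0.064) and 4.9 ± 1.14 over 10 (adjusted p = 0.00846). Agt, angiotensinogen, stood at 115, 34.1 and 35.3 CPM and then at 360, 49.6 and 362 CPM, and passed only over 10 libraries (3.36 ± 0.85, adjusted p = 0.0118). Mt3, a metallothionein of brain, stood at 117, 16.1 and 15.6 CPM and then at 174, 6.07 and 168 CPM, and also passed only over 10 libraries (3.41 ± 0.8, adjusted p = 0.00851). Both had 48 h replicate 2 within or below the 3 h range. Over 12 libraries the adjusted p was 0.105 for Agt and 0.439 for Mt3.

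Sparcl1, a matrix protein that astrocytes secrete, rose from 450, 1150 and 1130 CPM to 2240, 3280 and 2240 CPM (1.51 ± 0.42, adjusted p = 0.0286). Its call was lost without any 1 of the 48 h libraries (adjusted p up to 0.0644). Slc1a3, a glutamate transporter shared by radial glia and astrocytes, rose from 142, 510 and 507 CPM to 1030, 2130 and 1040 CPM (1.86 ± 0.46, adjusted p = 0.0185). The median fold change of the astrocyte list was 1.6 over 12 libraries and 2.36 over 10. In fits lacking 48 h replicate 1 or 3, 5 rose, without 3 h replicate 2 or 3, 6, and without 48 h replicate 2, 15. The share of reads on the list was 0.336% to 0.369% at 3 h, 1.31% in 48 h replicates 1 and 3, and 0.704% in replicate 2.

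Of 15 tested genes of the oligodendrocyte lineage, 8 rose and 1 fell over 12 libraries, and 11 were higher and 2 lower over 10. Olig2, the factor that sets up this lineage (chr16:91225457-91228677), rose from 222, 220 and 214 CPM to 443, 828 and 431 CPM (1.38 ± 0.33, adjusted p = 0.0165). Olig1, its relative, rose from 685, 408 and 409 CPM to 970, 1220 and 945 CPM (1.06 ± 0.29, adjusted p = 0.0261). In both, 48 h replicate 2 was the highest library. Pdgfra, the receptor of oligodendrocyte precursors, rose from 0.304, 2.28 and 1.22 CPM to 8, 4.92 and 8.41 CPM (2.43 ± 0.56, adjusted p = 0.014). Lhfpl3, another precursor gene, rose from 0.101, 0.342 and 0.277 CPM to 6.53, 1.69 and 6.13 CPM (4.19 ± 0.55, adjusted p = 0.00192). The times did not overlap for these genes, but Pdgfra and Lhfpl3 were at most 8.41 CPM. The 8 that rose also included Nkx2-2 and Gpr17, which were at most 0.366 and 0.977 CPM in any wild-type library. Nkx2-2 had 0 reads at 3 h. The filter for testing took all 4 groups together. In the libraries labelled Chd5-/- the means at 3 h and 48 h were 32.8 and 11.4 CPM for Nkx2-2, and 0.866 and 34.5 CPM for Gpr17. Sox10, the defining factor of the committed lineage, was at most 0.0569 CPM in any of the 6 wild-type libraries and was not tested. The Olig1 call was lost without 3 h replicate 2 or 3 or 48 h replicate 1 or 3 (adjusted p up to 0.0698).

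**Figure D4:**
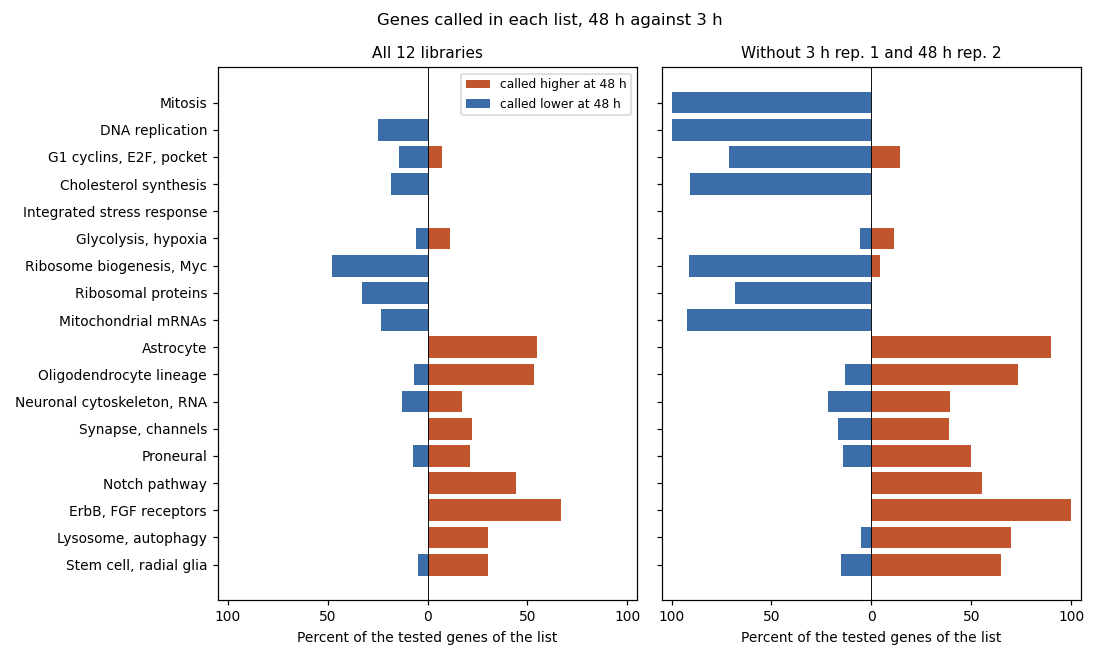
Percent of the tested members of selected gene lists that were called higher (bars to the right) or lower (bars to the left) at 48 h, with 12 libraries and with 10. Of 20 astrocyte genes 11 were higher with 12 libraries and 18 with 10, and of 20 mitosis genes 0 were lower with 12 and 20 with 10. Only members tested with 12 libraries are counted.

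Single neuronal genes changed in both directions. Mapt, the axonal protein tau, rose from 11.2, 12.5 and 12.9 CPM to 161, 17.3 and 169 CPM (3.24 ± 0.77, adjusted p = 0.0159). Stmn1, a microtubule regulator that dividing progenitors express too, fell from 1260, 431 and 410 CPM to 143, 196 and 145 CPM (-2.12 ± 0.46, adjusted p = 0.0111). Gap43, a growth cone protein, fell from 74, 62.1 and 58.5 CPM to 3.66, 20.4 and 2.84 CPM (-2.86 ± 0.77, adjusted p = 0.0258). The times did not overlap in these genes, with Mapt in 48 h replicate 2 close above the 3 h range. Calls for Mapt and Gap43 were lost without 48 h replicate 1 or 3 (adjusted p up to 0.0539 and 0.0907). Dcx, which marks young migrating neurons, stood at 0.506, 0.285 and 0.832 CPM and then at 7.08, 0.337 and 7.61 CPM, and did not pass (3.19 ± 1.41, adjusted p = 0.121; over 10 libraries 3.67 ± 1.54, adjusted p = 0.0753). Tubb3, neuronal beta-tubulin, stood at 119, 157 and 150 CPM and then at 118, 7.62 and 121 CPM and did not pass either (-0.79 ± 0.79, adjusted p = 0.491). In 48 h replicate 2 Dcx lay within the 3 h range and Tubb3 below it.

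Genes of mature neurons were scarce. Stmn2 was 0.203, 0.171 and 0.111 CPM at 3 h and 1.22, 0 and 1.48 CPM at 48 h, and Snap25 was 0, 0.399 and 0.222 CPM and then 0.366, 0 and 1.25 CPM. The vesicular transporters Slc17a6 and Slc32a1 had 0 reads in all 6 libraries. Of 23 tested genes of the neuronal cytoskeleton and RNA-binding list, 4 rose and 3 fell over 12 libraries and 9 were higher and 5 lower over 10. With all 26 members tested over 10 libraries, 10 were higher and 7 lower. The counts over 12 libraries are near the shares of all genes, 12.7% higher and 10.1% lower, and the list's median log2 fold change was 0.29. Without 48 h replicate 1 or 3, 1 rose, without any 3 h library, 2, and without 48 h replicate 2, 8.

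Among synaptic genes, Syn2, synapsin 2, rose from 32.4, 35.2 and 37.2 CPM to 156, 53.3 and 156 CPM (1.8 ± 0.37, adjusted p = 0.00904). Stx1a, syntaxin 1A, rose from 8.3, 4.9 and 5.05 CPM to 14.3, 21 and 14.3 CPM (1.45 ± 0.29, adjusted p = 0.00789). The times did not overlap in these genes, and their calls held without any 1 library. Of 18 tested synaptic and channel genes, 4 rose and 0 fell over 12 libraries, and 7 were higher and 3 lower over 10. With all 20 members tested over 10 libraries, 7 were higher and 4 lower. Gad1, which makes the transmitter GABA, rose from 4.25, 5.69 and 6.6 CPM to 30.6, 32.5 and 29.8 CPM (2.48 ± 0.36, adjusted p = 0.0026). Calb2, calretinin, fell from 107, 45.3 and 39.8 CPM to 6.84, 11.7 and 7.33 CPM (-2.89 ± 0.4, adjusted p = 0.00225). Both separated the times in every library. Of the 8 tested genes of the GABAergic list these were the only calls over 12 libraries, and without 48 h replicate 2 there were 4 higher and 2 lower.

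Among proneural genes, Myt1, a zinc finger factor of early neurons and oligodendrocyte precursors, rose from 0.709, 3.7 and 2.72 CPM to 92.1, 8.77 and 87.5 CPM (4.69 ± 0.91, adjusted p = 0.00731). Neurog1 and Atoh1 had 0 reads in all 6 libraries. Of 14 tested proneural genes 3 rose and 1 fell over 12 libraries, and 7 were higher and 2 lower over 10. With all 16 members tested over 10 libraries, 9 were higher and 2 lower. With 48 h replicate 1 or 3 left out, 1 rose, and without 3 h replicate 1 or 48 h replicate 2, 5 and 8.

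Of 20 tested genes of stem cells and radial glia, 6 rose and 1 fell over 12 libraries, and 13 were higher and 3 lower over 10. Nes, the filament protein nestin, fell from 1890, 1180 and 1150 CPM to 778, 446 and 814 CPM (-1.05 ± 0.31, adjusted p = 0.0369), a call lost without any 1 of the 48 h libraries (adjusted p up to 0.0794). Sox2, the central factor of neural stem cells, stood at 23.4, 101 and 109 CPM and then at 139, 73.4 and 134 CPM (0.57 ± 0.46, adjusted p = 0.395; over 10 libraries 0.35 ± 0.12, adjusted p = 0.0409). Its groups overlapped, with 48 h replicate 2 within the 3 h range. Sox9, shared with astrocytes, rose from 32.5, 40.9 and 41.3 CPM to 109, 55 and 99.4 CPM (1.2 ± 0.26, adjusted p = 0.0106), and its adjusted p was 0.0504 without 48 h replicate 1. In fits lacking 48 h replicate 1 or 3, 2 and 3 rose, and without 3 h replicate 2 or 3, 3 and 4. The list shares Slc1a3, Hes5, Notch1, Lfng and Sox9 with cells that become astrocytes or signal through Notch.

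Matrix and guidance genes included several that rose in every library. Vcan, the proteoglycan versican, rose from 0.608, 1.37 and 1.11 CPM to 8.12, 11.3 and 9.66 CPM (3.2 ± 0.35, adjusted p = 0.000891). Ncan, neurocan, rose from 190, 284 and 279 CPM to 884, 581 and 862 CPM (1.63 ± 0.29, adjusted p = 0.00577). Of 18 tested matrix genes, 4 rose and 0 fell over 12 libraries, and 9 were higher and 2 lower over 10. Without 48 h replicate 1 or 3, 2 matrix genes rose. Ephb2, an ephrin receptor, rose from 2.33, 1.65 and 1.72 CPM to 35.6, 8.77 and 38.1 CPM (3.86 ± 0.72, adjusted p = 0.00647). Nrp2, a semaphorin receptor, rose from 10.7, 26.5 and 24.8 CPM to 85.5, 64.3 and 82.2 CPM (1.9 ± 0.42, adjusted p = 0.0122). The times did not overlap for these 4 genes. Of 25 axon guidance genes, 6 rose and 0 fell over 12 libraries, and 8 were higher and 6 lower over 10. The counts over 10 libraries are near the shares of all genes, 27.4% higher and 26.1% lower. The median log2 fold change of the guidance list was 0.74 over 12 libraries and 0.27 over 10. With 48 h replicate 1 or 3 left out, 3 guidance genes rose. In 3 h replicate 1 the guidance genes were lower than in replicates 2 and 3 by a median log2 difference of -1.23.

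Several lysosomal genes rose. Mcoln1, the lysosomal calcium channel, rose from 45, 46.5 and 44.8 CPM to 92.4, 140 and 90.2 CPM (1.24 ± 0.21, adjusted p = 0.0044). Ctsb, the protease cathepsin B, rose from 208, 165 and 160 CPM to 333, 448 and 333 CPM (1.07 ± 0.21, adjusted p = 0.00731). Neu1, a sialidase, rose by 1.1 ± 0.23 (adjusted p = 0.0103). In Mcoln1 and Ctsb, 48 h replicate 2 was the highest library. Of 20 genes of lysosome and autophagy, 6 rose and 0 fell over 12 libraries, and 14 were higher and 1 lower over 10. Without 3 h replicate 1, 9 rose. Txnip and Pik3ip1, targets of FoxO and related nutrient signals, stood at 4.96, 15.5 and 17.4 CPM and 23.3, 18.2 and 16.5 CPM at 3 h. They rose to 57.6, 17.7 and 59.1 CPM (1.82 ± 0.5, adjusted p = 0.0279) and 112, 31.2 and 113 CPM (2.14 ± 0.51, adjusted p = 0.0158). Both calls were lost without 48 h replicate 1 or 3 (adjusted p up to 0.0964 for Txnip and 0.0574 for Pik3ip1). Of 18 insulin and FoxO genes 3 rose over 12 libraries, 7 were higher over 10, 0 rose without 48 h replicate 1 or 3 and 7 without 48 h replicate 2.

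Single targets of other signals changed. Axin2, a target of Wnt signalling, rose from 7.8, 40 and 42.2 CPM to 111, 98 and 110 CPM (1.82 ± 0.47, adjusted p = 0.0221), a call lost without 48 h replicate 1 or 3 (up to 0.0662). Id1, a target of BMP signalling, fell from 108, 33.5 and 38.2 CPM to 15.6, 19.9 and 12.7 CPM (-1.89 ± 0.5, adjusted p = 0.0227), lost under the same omissions (up to 0.0853). Chrd, a secreted BMP antagonist, rose from 3.65, 3.13 and 4.55 CPM to 20, 14.8 and 20.4 CPM (2.28 ± 0.39, adjusted p = 0.00508). Over 12 libraries 4 of 17 Wnt and hedgehog genes rose and 1 fell, and 2 of 15 BMP genes rose and 2 fell. In fits lacking 48 h replicate 1 or 3, 0 of the Wnt and hedgehog genes rose, and 1 BMP gene rose and 0 fell. Of the immediate early genes 2 of 20 rose and 3 fell, and 1 rose and 1 fell when 48 h replicate 1 or 3 was left out. Npas4, induced by neuronal activity, fell from 23, 17.3 and 18.6 CPM to 2.5, 0.405 and 3.18 CPM (-3.26 ± 0.68, adjusted p = 0.00976). Btg2, an antiproliferative gene, rose from 25.7, 39.6 and 40.2 CPM to 134, 64.1 and 136 CPM (1.66 ± 0.33, adjusted p = 0.00789). The 21 integrated stress response genes had 0 calls over 12 libraries in edgeR, DESeq2 and limma-voom, with 0 at an unadjusted p under 0.05 in edgeR. In 48 h replicate 2 they were higher than in replicates 1 and 3 by a median of 2.28 (log2). There 20 of them were nearer the 3 h level than the level of those 2 libraries, but 19 lay outside the range between these levels. The list mean of log2(CPM + 1) was 7.16 in that library and 6.59, 6.25 and 6.23 at 3 h.

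Among chromatin regulators, Chd5, the gene of the series, stood at 3.54, 3.93 and 4.66 CPM at 3 h and at 6.59, 7.15 and 5.28 CPM at 48 h. The 48 h libraries lay above the 3 h libraries, but the difference did not pass (0.64 ± 0.31, adjusted p = 0.152; over 10 libraries 0.44 ± 0.32, adjusted p = 0.262). The libraries labelled Chd5-/- also held Chd5 reads, at 6.21 ± 0.906 CPM (SD, n = 3) at 3 h and 4.0 ± 1.48 CPM (SD, n = 3) at 48 h, and the labels do not say which part of the gene was removed. Chd3, its close relative in the NuRD complex, rose from 39.7, 57.8 and 57.9 CPM to 106, 107 and 106 CPM (1.04 ± 0.2, adjusted p = 0.00755). Of the 9 Chd genes, 2 rose and 0 fell over 12 libraries, 5 were higher and 1 lower over 10, and 1 rose without 48 h replicate 1 or 3. Ss18l1, the neuronal subunit of the BAF remodelling complex, rose from 6.48, 7.74 and 6.49 CPM to 14, 16 and 14.5 CPM (1.1 ± 0.21, adjusted p = 0.00735). Of 15 BAF genes, 2 rose and 0 fell over 12 libraries, and 6 were higher and 5 lower over 10. Without 48 h replicate 1 or 3, 1 BAF gene rose, and without 48 h replicate 2, 5.

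**Figure D5:**
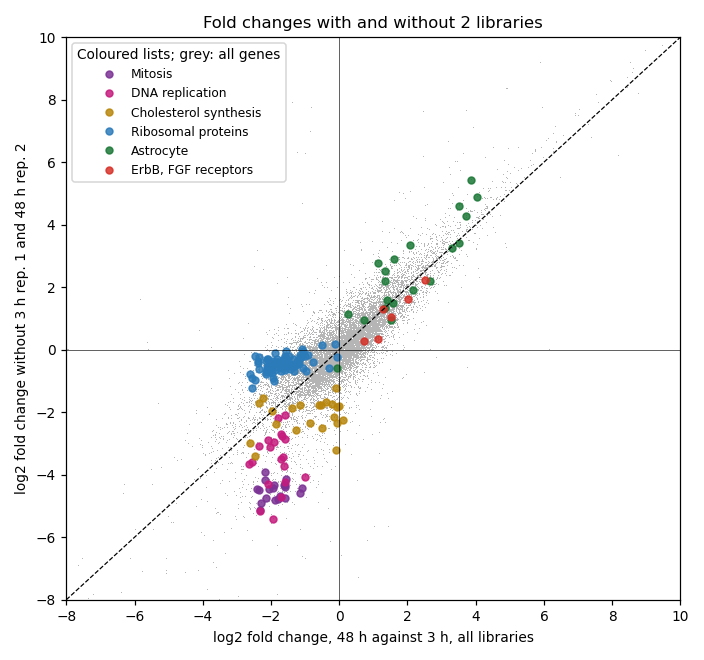
Log2 fold change of each gene, 48 h minus 3 h, with all 12 libraries (horizontal axis) and with 10 (vertical axis), selected lists in colour, other genes in grey and equality as a dashed line. Of 16029 genes with both values, 23 lie outside the axes. Mitosis and DNA replication genes lie at larger negative values with 10 libraries than with 12.

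The largest changes among genes that passed and did not overlap were named by a rule on fold change and level. Miat, a long noncoding RNA of brain (ENSMUSG00000097767, chr5:112213228-112229395), rose from 1.72, 2.45 and 3.16 CPM to 1430, 17.9 and 1430 CPM (8.6 ± 1.97, adjusted p = 0.0137). Mmd2, a Golgi membrane protein gene, rose from 1.32, 0.968 and 0.777 CPM to 49.3, 4.79 and 51.6 CPM (5.12 ± 0.82, adjusted p = 0.00377). Vcam1, an adhesion molecule of quiescent neural stem cells, rose from 0.405, 1.59 and 1.83 CPM to 56.7, 7.89 and 61.7 CPM (4.99 ± 0.86, adjusted p = 0.00501). Gdpd2, a phosphodiesterase gene, rose from 7.29, 10.2 and 7.77 CPM to 265, 21.4 and 260 CPM (4.43 ± 1.02, adjusted p = 0.014). In all 4, 48 h replicate 2 was above the 3 h range but far below the other 48 h libraries.

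Falls named by the same rule were more even across the 48 h libraries. Aldh1a3, which makes retinoic acid (chr7:66390890-66427517), fell from 31.3, 28.1 and 29.7 CPM to 0.427, 1.69 and 0.795 CPM (-4.94 ± 0.57, adjusted p = 0.00115). Vgf, a secreted neuropeptide precursor that growth factors induce (chr5:137026392-137033351), fell from 51.8, 22.9 and 25.1 CPM to 1.34, 1.69 and 1.19 CPM (-4.56 ± 0.41, adjusted p = 0.000435). Bc1, a short noncoding RNA of neurons, fell from 157, 18.2 and 24.5 CPM to 0.672, 0.674 and 1.08 CPM (-6.34 ± 0.9, adjusted p = 0.00251; -4.61 ± 0.49 over 10 libraries). In these 3 genes 48 h replicate 2 lay with the other 48 h libraries. In every fall named by the rule, 3 h replicate 1 was the highest 3 h library. It was far above the others in Batf3 (33.1, 3.3 and 4.11 CPM) and Rpph1 (34.7, 2.96 and 2.44 CPM), for example. Some of the falls not detailed were uneven at 48 h, such as Stpg4 (0.0611, 1.15 and 0.227 CPM). The calls of Miat, Mmd2, Vcam1, Gdpd2, Aldh1a3, Vgf and Bc1 held without any 1 wild-type library.

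Of the remaining lists, 2 of 18 glycolysis and hypoxia genes rose and 1 fell, and 2 of 15 p53 targets rose and 1 fell. Of 8 tested genes of ependymal cilia, 1 rose and 2 fell. When 48 h replicate 1 or 3 was left out, 0 glycolysis and hypoxia genes passed, 1 p53 target rose and 1 fell, and 0 ependymal genes rose and 1 fell. The 17 tested interferon and antigen presentation genes had 0 calls in edgeR, at 3 with an unadjusted p under 0.05, 0 in limma-voom and 1 in DESeq2.

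Markers of other cell types were low. Summed over its list, microglial RNA was 0.810 to 2.16 CPM at 3 h and 1.22 to 2.76 CPM at 48 h. Endothelial RNA was 2.23 to 6.78 CPM at 3 h and 9.77 to 11.6 CPM at 48 h, with 1 of 5 tested genes higher. Fibroblast and mural RNA was 18.7 to 20.7 CPM and then 11.5 to 15.4 CPM, with 1 of 7 tested genes lower. No erythroid gene was tested. Choroid plexus RNA was 1.61 to 2.73 CPM and then 0.284 to 0.742 CPM. The part of such cells in the changes above was not tested.

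The test of whether the change over time differed from that in the libraries labelled Chd5-/- called 37 genes, or 0.231% of those tested, with 15 differences positive and 22 negative. Over 10 libraries it called 1493. Of the genes named above Sparcl1 and Nkx2-2 were among the 37, and Nkx2-2 is described further below. Sparcl1 had a difference of -5.51 ± 0.62 (wild type minus Chd5-/-, log2, adjusted p = 0.00476). In the libraries labelled Chd5-/- Sparcl1 stood at 9.44 ± 1.12 CPM at 3 h and at 1220 ± 499 CPM at 48 h (SD, n = 3). Anxa2, a membrane-binding protein, fell in wild type from 174, 87.4 and 87.1 CPM to 40.7, 17.3 and 37.1 CPM (-1.88 ± 0.36, adjusted p = 0.0074). In the libraries labelled Chd5-/- it stood at 2.6 ± 0.333 CPM at 3 h and 30.1 ± 2.56 CPM at 48 h (SD, n = 3), and the difference between the courses was -5.41 ± 0.54 (adjusted p = 0.00248). No member of the mitosis, DNA replication, cholesterol synthesis or Notch lists was among the 37, which does not show that their courses were alike.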

How the data were processed

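The series measured RNA in mouse primary neural stem cells, with 3 libraries for each genotype (wild type, Chd5-/-) and time (3 h, 48 h). Libraries were prepared with a TruSeq Stranded mRNA kit, per the labels' protocols. Per the file headers, the deposited tables hold estimated counts (NumReads) and TPM for 140658 transcripts. The authors made them with Salmon, per the submitters' processing notes, and its version, index and settings are not given in the sources read. TPM values were not used.

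Transcript names were looked up in GENCODE M21 on GRCm38, which may differ from the authors' annotation. The 521 transcripts without a match, with 0.135% to 0.181% of a library's reads, were left out. Estimated counts were summed over each of 54356 genes and rounded. In edgeR 4.0.16 (R 4.3.3), filterByExpr chose the genes tested (a count of at least 10 and a total of at least 15), libraries were scaled by TMM and 1 mean per group was fitted over all 12 libraries. Quasi-likelihood F tests, two-sided, were run for 48 h minus 3 h in wild type and for its difference from that in Chd5-/-, and called at a Benjamini-Hochberg adjusted p under 0.05. The SE is the log2 fold change over the square root of F. In simulated data with 16043 genes for the wild-type contrast, 53 of 100 genes changed 2-fold and 100 of 100 changed 4-fold were called, with 10 of 15423 unchanged genes. The simulation gave every gene the same spread and held no library that stood apart. Its rates therefore do not carry over to these libraries. Bounds and intervals (95% exact Poisson) cover counting error only, because reads were not tied to molecules by identifiers.

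The members, the 38 gene lists and the 2 libraries left out were chosen with earlier results of these data known. The rule for naming genes took the 12 largest rises and the 12 largest falls that passed, reached 5 CPM in the higher group and did not overlap. It added the 10 and 10 largest that passed only over 10 libraries (20 CPM or more), 4 or fewer members per list by smallest p in either fit, a fixed set, and 5 and 5 genes for the interaction. From these, examples were taken. The alternatives were RLE size factors, no filter, a filter of 1 CPM in 3 libraries, limma-voom (limma 3.58.1), DESeq2 1.42.0, a term for effective length, fewer libraries, replicate blocks and each wild-type library left out. DESeq2 and limma-voom on the 6 wild-type libraries were added after seeing the data. Promoter sequences are those of RefSeq on GRCm38.p6, without those on chromosome 18, where the mitosis gene Kif20a lies.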

Additional observations from a re-analysis of the deposited data

Results flagged for a closer look

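The results below stand apart because the change from 3 h to 48 h differed between the libraries labelled wild type and those labelled Chd5-/-, by edgeR's test of that difference. Of 37 genes called, those given are the 5 largest positive and 5 largest negative differences (wild type minus Chd5-/-, log2 ± SE) among genes with a mean of at least 5 CPM in the highest of the 4 groups.

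Of the positive differences, Ddit4l, a stress-response gene, had 9.07 ± 0.84 (adjusted p = 0.00199). It stood at 0, 0 and 0.0555 CPM at 3 h and 3.18, 1.01 and 2.56 CPM at 48 h in wild type, a ratio of 102 to a 3 h level of 1 read (95% counting interval 18.3 to 4040), and at 306 ± 2.41 and 43.7 ± 14.8 CPM in Chd5-/- (SD, n = 3). Nkx2-2, a ventral patterning and oligodendrocyte factor, had 6.95 ± 0.67 (adjusted p = 0.00476). It had 0 reads in the 3 wild-type libraries at 3 h and 0.366, 0.337 and 0.284 CPM at 48 h, at least 4.99-fold higher if the 3 h group is set at 3 counts in all, and 32.8 ± 2.35 and 11.4 ± 2.26 CPM in Chd5-/- (SD, n = 3). Shisa6, an AMPA receptor partner, had 7.08 ± 1.14 (adjusted p = 0.0365), Rin3, an endocytosis regulator, 5.52 ± 0.76 (0.015) and Ank3, ankyrin-G of the axon initial segment, 3.94 ± 0.63 (0.0364). All 5 were higher at 3 h in the libraries labelled Chd5-/- than in any wild-type library.

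Of the negative differences, Sparcl1 had -5.51 ± 0.62 (adjusted p = 0.00476), Anxa2 -5.41 ± 0.54 (0.00248), Col5a2, a fibrillar collagen, -5.11 ± 0.61 (0.00572), Sirt6, a deacetylase, -5.04 ± 0.61 (0.00572) and Eml2, a microtubule-binding protein, -4.91 ± 0.56 (0.00476). Within wild type Col5a2, Sirt6 and Eml2 did not pass over time (adjusted p of 0.8, 0.912 and 0.959). In Chd5-/- they stood at 1.06 ± 0.245, 0.216 ± 0.0436 and 0.346 ± 0.162 CPM at 3 h and 40.8 ± 1.82, 7.67 ± 0.588 and 10.4 ± 1.42 CPM at 48 h (SD, n = 3). Under 5 CPM in all 4 groups, Twist1, a mesenchymal transcription factor, had a larger difference (-7.45 ± 0.74, adjusted p = 0.00248). The wild-type libraries held 2.23, 1.77 and 2.0 CPM at 3 h and 0.672, 0.337 and 0.341 CPM at 48 h. Those labelled Chd5-/- held 0.0376 ± 0.0326 CPM at 3 h and 1.85 ± 0.129 CPM at 48 h (SD, n = 3).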

How the results depend on the processing

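The labels give the groups the same replicate numbers but do not say that they mark a shared culture. For that reason the numbers were not taken to pair the libraries. Same-numbered wild-type libraries had correlations of deviations of 0.0153, 0.0199 and -0.0193. In each group the library that stood apart dominates these deviations, so the correlations cannot decide whether the other replicates are paired. A replicate block cut the 3668 calls over time to 777 with 12 libraries and to 0 with the 6 wild-type libraries (2599 unadjusted), and the 37 interaction calls to 3.

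Calls over time numbered 8831 over 10 libraries, 12539 without Chd5-/- 48 h replicate 2 as well, 12480 with the 4 remaining wild-type libraries, 0 with the 6 wild-type libraries in edgeR or limma-voom, and 2176 there in DESeq2. Leaving out 1 wild-type library gave 1464 to 5419. RLE size factors, either filter, DESeq2, limma-voom and the length offset stayed between 2799 and 4856. Interaction calls numbered 1493 over 10 libraries, 6669 over 9, 385 in DESeq2 and 16 to 310 with 1 wild-type library left out. The causes were not tested. The median log2 fold change of all genes moved to at most 0.16 (without 3 h replicate 3).

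For the named genes and 20 alternatives there were 2056 fold changes. Of these, 1579 kept their side of the threshold, 381 lost a call and 96 gained one. Direction reversed in 0 where the main or the alternative fit called the gene. Where neither did, a change of direction was not counted, and Sqle ran from -1.59 to 0.34 with 1 wild-type library left out. Of 80 genes called, 53 stayed called without any 1 wild-type library. Depth limits genes of few reads, such as Nkx2-2.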
